A study of Rattus norvegicus with 2 samples.

Results

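The genes of the insulin-like growth factor (IGF) family were compared between the bladders of rats given dimethylarsinic acid (DMA) and those of control rats. The family comprised 10 genes, namely the ligands Igf1 and Igf2, the receptors Igf1r and Igf2r and the binding proteins Igfbp2 to Igfbp7, out of 22093 genes on the array. A gene entered by its symbol, through a transcript cluster (a group of probes covering a whole transcript) that carried this symbol alone, and the brightest cluster was to stand for a gene with several. Each of the 10 genes had exactly 1 cluster. The family was chosen by the measured ratio of DMA to control, in which Igfbp3 was among the lowest genes, so its ratios are given as a description and without a test.

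The DMA group comprised 7 male F344 rats that received DMA at 200 ppm in their drinking water for 4 weeks, and the control group comprised 7 male F344 rats whose water held 0 ppm. By the labels, both groups were 6 weeks old at the start and 10 weeks old at sampling, whereas the methods of the study give an older starting age. RNA of the 7 rats of a group was pooled and hybridised to 1 array, which leaves 1 value per group and no spread between animals. The labels name the tissue as urinary bladder, while the methods tell of epithelium shaken off bladders turned inside out. In either case, fewer cells of a type and less RNA per cell cannot be told apart in such a preparation.

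IGF1 and IGF2 are secreted growth factors that activate the tyrosine kinase receptor IGF1R, while IGF2R, which is also the mannose 6-phosphate receptor, takes up IGF2 for degradation. In tissue fluid most IGF is held by binding proteins, which keep it from its receptor or release it near the cell after cleavage by proteases. The binding proteins are secreted, several attach to the extracellular matrix, and in many organs the connective tissue is a source of both IGF1 and its binding proteins.

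The promoters of 5 members are shown because they belong to the 3 genes with at least 2-fold lower signal in the DMA pool and to Igfbp2 and Igfbp5, which lie next to each other and differed in ratio. The study concerned DNA methylation, which in mammals falls mainly on cytosines followed by guanine (CpG), so each CpG is in capitals. Sequences were taken from RefSeq (build GRCr8, where all 10 genes were matched, Igf2 with 2 starts), and each covers the 250 bases before the annotated start of the transcript, 5′ to 3′.
Igfbp3 (chr14:86277945-86278194, minus strand): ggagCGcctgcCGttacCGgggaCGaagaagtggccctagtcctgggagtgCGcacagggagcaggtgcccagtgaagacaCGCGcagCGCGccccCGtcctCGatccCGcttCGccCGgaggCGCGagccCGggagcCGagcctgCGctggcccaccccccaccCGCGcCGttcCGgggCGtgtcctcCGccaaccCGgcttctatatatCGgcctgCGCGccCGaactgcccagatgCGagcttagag
Igfbp4 (chr10:84491221-84491470, plus strand): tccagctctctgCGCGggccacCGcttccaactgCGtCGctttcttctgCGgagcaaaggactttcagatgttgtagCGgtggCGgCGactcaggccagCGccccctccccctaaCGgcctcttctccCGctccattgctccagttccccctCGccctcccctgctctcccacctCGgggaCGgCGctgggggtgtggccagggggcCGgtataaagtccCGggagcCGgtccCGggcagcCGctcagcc
Igf1 (chr7:24172282-24172531, plus strand): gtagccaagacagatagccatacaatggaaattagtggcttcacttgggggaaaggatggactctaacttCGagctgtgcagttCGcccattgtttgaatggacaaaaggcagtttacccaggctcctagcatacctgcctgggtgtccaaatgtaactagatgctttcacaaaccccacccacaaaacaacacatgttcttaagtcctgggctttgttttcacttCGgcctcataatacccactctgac
Igfbp5 (chr9:81914188-81914437, minus strand): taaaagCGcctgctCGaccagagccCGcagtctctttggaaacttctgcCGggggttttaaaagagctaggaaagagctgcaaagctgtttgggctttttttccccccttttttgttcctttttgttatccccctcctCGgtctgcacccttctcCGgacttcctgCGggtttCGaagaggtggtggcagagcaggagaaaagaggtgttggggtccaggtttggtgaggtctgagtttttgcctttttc
Igfbp2 (chr9:81864561-81864810, plus strand): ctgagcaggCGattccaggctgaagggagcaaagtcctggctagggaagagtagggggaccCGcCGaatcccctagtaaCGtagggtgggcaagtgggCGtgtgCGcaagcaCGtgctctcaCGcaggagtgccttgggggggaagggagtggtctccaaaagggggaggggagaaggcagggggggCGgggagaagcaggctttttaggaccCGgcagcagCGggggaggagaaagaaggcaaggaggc

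The 5 promoters differed in their CpG content. The Igfbp3 promoter held 31 CpGs, a number reached or passed by 4.68% of the 33469 promoters in the table, and the Igfbp4 promoter held 21 (15.1%). The neighbouring genes Igfbp2 and Igfbp5 had 11 (33.6%) and 8 (41.6%), and the promoter of Igf1 had 3 (71.4%), against a median of 5 over all promoters. Igf1 has several transcript starts and only 1 of them was in the table. Of the 3 genes called lower, Igfbp3 and Igfbp4 were thus above the upper quartile of all promoters (15 CpGs) and Igf1 was below the median. Among the other members, Igf1r had 45 CpGs, Igfbp7 26, Igf2r 23 and Igfbp6 5, and the windows at the starts of Igf2 had 7 and 15. The motif TATANA, the core of a TATA box, searched on both strands, stood in 2 of the 11 promoters, those of Igfbp3 (3 overlapping matches over both strands) and Igfbp4 (1 match), and in 24.2% of all promoters. The GC box core GGGCGG, also searched on both strands, stood in 5 of the 11, including Igfbp2, and in 30.5% of all promoters. Methylation of these promoters was not measured on the arrays.

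Of the 10 family members, 3 had a DMA signal at most 0.5 times that of the control pool, and 0 had one at least 2-fold higher. The lower ones were Igfbp3, Igfbp4 and Igf1. A gene was called lower at this ratio with a Z score of -2 or less, and called higher at a ratio of 2 or more with a Z score of 2 or more. The Z score places a log2 ratio among those of the 500 genes nearest in signal, and it carries no information on differences between animals. All 10 genes counted as measured, which needed a signal of at least 100 in one of the pools. Of the 11718 measured genes, 1.42% were lower and 0.375% were higher by the same thresholds. With a threshold of 1.5-fold and no Z score, 4 members (Igfbp5 in addition) were lower and 0 higher, against 5.48% and 1.3% of measured genes. A log2 ratio below 0 was seen in 9 of the 10 members and in 58.9% of measured genes, and the median log2 ratio was -0.39 for the family and -0.04 for all measured genes. These shares are shown for scale only, since the family was picked for a low ratio.

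**Figure D1:**
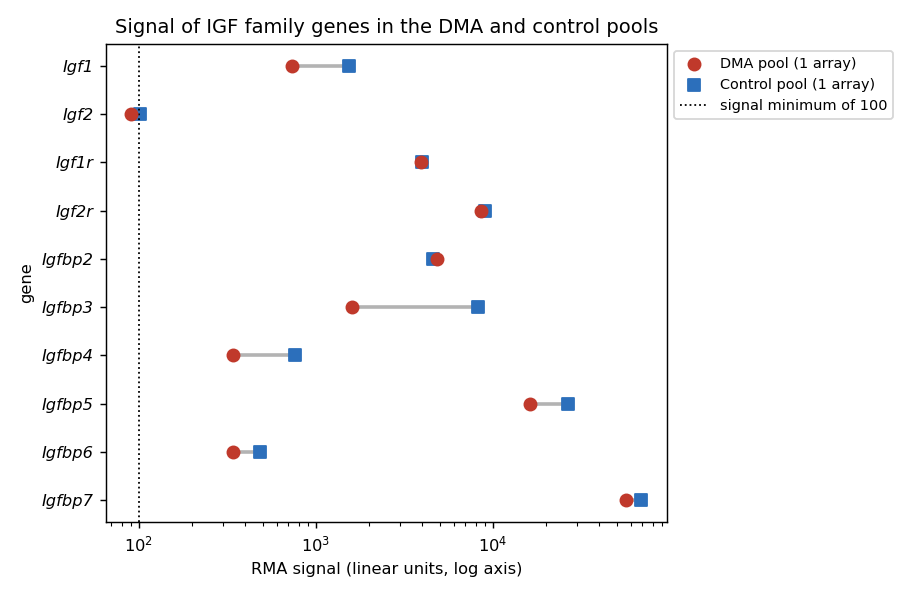
RMA signal (linear units on a log axis) of the 10 IGF family genes in the DMA pool (circles) and the control pool (squares), 1 array each, with the signal minimum of 100 as a dotted line. The gap between the pools was widest for Igfbp3 (1611 in the DMA pool, 8294 in the control pool), and the symbols nearly coincided for Igf1r (3909 and 3971). Signals of different genes cannot be set against each other.

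Igfbp3, the main carrier of IGFs in the circulation and a binding protein also made in many tissues, had a signal of 1611 in the DMA pool, against 8294 in the control pool (cluster TC1400002217.rn.1). It was thus 5.15-fold lower, with a log2 ratio of -2.36 and a Z score of -7.91. Its ratio was the 6th lowest of the 11718 measured genes. The gene next below it in ratio was Cyp1b1, a cytochrome P450 (log2 ratio -2.38, with signals of 465 in the DMA pool and 2418 in the control pool). The gene next above it was C7, a complement component (-2.26, with 8981 and 42960).

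Igfbp4, a binding protein that inhibits IGF action until it is cleaved by the protease PAPP-A, had a signal of 339 in the DMA pool, against 764 in the control pool. It (cluster TC1000001598.rn.1) was 2.25-fold lower, with a log2 ratio of -1.17 and a Z score of -3.81. Lower ratios were found in 0.794% of measured genes.

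Igf1 had a signal of 735 in the DMA pool, against 1535 in the control pool. It (cluster TC0700000447.rn.1) was 2.09-fold lower, with a log2 ratio of -1.06 and a Z score of -3.24, and lay just inside the threshold. Lower ratios were found in 1.19% of measured genes. A ligand and a pair of binding proteins for it were thus low in the same pool.

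The other binding proteins had smaller differences. Igfbp5, a close relative of Igfbp3 and like it a partner of the acid-labile subunit in the ternary complex, had a signal of 16145 in the DMA pool, against 26515 in the control pool. Its ratio was 1.64-fold lower (log2 ratio -0.72, Z score -1.90), so that its Z score was near its limit and its ratio of 0.609 was not. It was the member next outside the thresholds. Igfbp6, which prefers IGF2 over IGF1, had signals of 339 in the DMA pool and 481 in the control pool, with a log2 ratio of -0.51. Igfbp7, a matrix-associated relative with low affinity for IGFs, had signals of 56769 and 68710 in these pools, with a log2 ratio of -0.28. Igfbp2, which carries an integrin-binding motif, was the only member above 0, with 4863 in the DMA pool, 4592 in the control pool and a log2 ratio of 0.08. That of Igfbp2 was -0.02 when each array was centred on its median, so its direction is not settled. The 6 binding proteins had a median log2 ratio of -0.61, and 2 of them were called lower.

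The receptors differed little between the pools. Igf1r had a signal of 3909 in the DMA pool and 3971 in the control pool, with a log2 ratio of -0.02 that was 0.02 after a loess correction of the ratio for signal. Igf2r had a signal of 8518 in the DMA pool and 9062 in the control pool, with a log2 ratio of -0.09. The second ligand, Igf2, which is strongly expressed before birth and low in most tissues of adult rodents, was dim in both pools, with 90.9 in the DMA pool and 101 in the control pool. Its log2 ratio of -0.16 rests on signals at the minimum, where RMA narrows ratios, and gives little information on the direction.

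**Figure D2:**
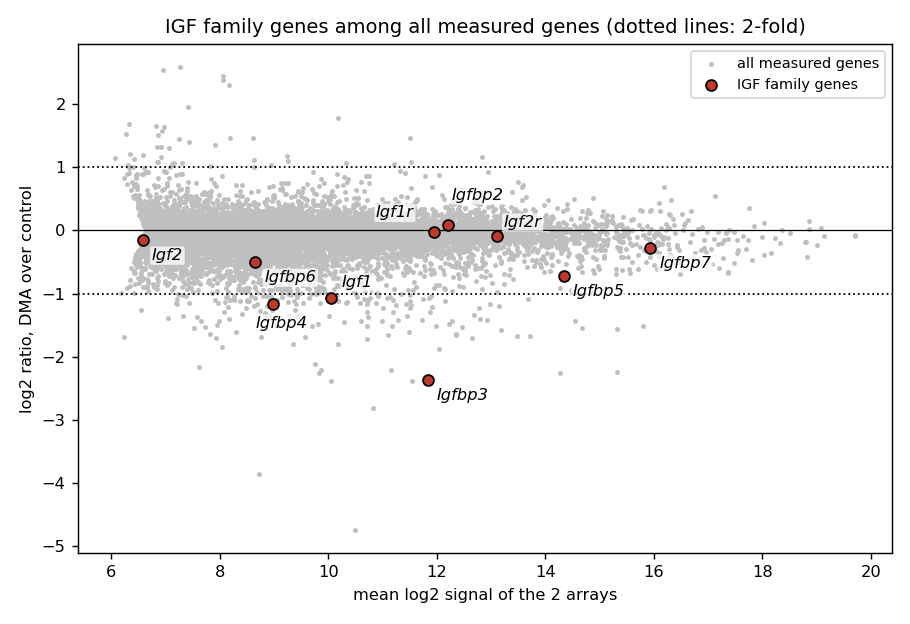
Log2 ratio of DMA over control against the mean log2 signal of the 2 arrays for the 11718 measured genes (grey) and the 10 IGF family genes (red), with dotted lines at 2-fold. Igfbp3 (-2.36), Igfbp4 (-1.17) and Igf1 (-1.06) lie below the lower line, and the receptors Igf1r (-0.02) and Igf2r (-0.09) lie within the bulk of genes of like signal.

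A further list of 12 genes held other binding proteins, their relatives and partners, proteases that cleave them and inhibitors of such proteases. Of these 12 genes, 6 were measured, 1 was called lower and 0 were called higher. Their median log2 ratio was -0.27, but -0.02 when both signals had to reach 100 and -0.01 with no signal minimum. Htra1, a secreted serine protease that cleaves matrix proteins and IGF-binding proteins, had a signal of 797 in the DMA pool, against 1626 in the control pool, and was 2.04-fold lower. Igfbpl1, a gene related to the binding proteins, had 60.9 in the DMA pool and 121 in the control pool (log2 ratio -0.99), and the PAPP-A inhibitor Stc1 had 196 and 280 (-0.51). Pappa, which encodes the protease for IGFBP4, was near the signal minimum in both pools, with 121 in the DMA pool and 109 in the control pool (0.15). Igfbp1 and Igfals, the gene of the acid-labile subunit, which the liver supplies to the blood, were under the minimum, with 36.2 and 34.8 in the DMA pool and 33.7 for each in the control pool. Of 6 hepatocyte markers only Apoa1 reached the minimum (114 in the DMA pool, 101 in the control pool).

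Genes that carry the signal inside the cell showed 0 calls in either direction. Among all measured genes, 1.42% were called lower and 0.375% higher. In lists this short, 0 calls is therefore near the share over all genes. Of 12 measured insulin family receptors and adaptors the median log2 ratio was -0.08, and the largest values were those of Grb10 (-0.75, with 277 in the DMA pool and 468 in the control pool), Grb14 (-0.47) and Gab1 (-0.37). GRB10 and GRB14 are adaptors that bind the insulin and IGF1 receptors and restrain them, and GAB1 is a docking protein. The insulin receptor gene Insr was at 0.09. The 16 measured genes of PI3K, AKT, FOXO and mTOR signalling had a median of -0.02, with Pik3r1, a regulatory subunit of PI3K, at -0.56 (4358 in the DMA pool, 6419 in the control pool), Akt2 at -0.18 and Pik3r2 at -0.16. The 6 genes of the growth hormone axis, the main regulator of Igf1 in the liver, had a median of -0.05, with Stat5b at -0.29, the growth hormone receptor gene Ghr at 0.26 and Cish at 0.23. Of the 7 other insulin family ligands only Ins2 was measured, at 0.08.

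Partners of the family outside the signalling cascade were described in the same way. The 8 cell surface and other partners of the binding proteins had 0 calls and a median log2 ratio of -0.04, with the matrix protein gene Vtn at -0.48, the endocytic receptor gene Lrp1 at -0.39 and the integrin gene Itgav at 0.32. Of the genes whose proteins bind Igf2 mRNA, Igf2bp3 was at -0.83 (95.6 in the DMA pool, 170 in the control pool) and Igf2bp2 at 0.44 (224 and 165), with 0 calls, and Igf2bp1 was under the minimum. For both lists, 0 calls is again near the share over all measured genes (1.42% lower, 0.375% higher).

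Of the imprinted genes that are grouped with Igf2 in the mouse, where many are active in the growing fetus, 6 were measured, of which 2 were called lower and 0 higher. All 6 had a log2 ratio below 0, and the median was -0.63. Dlk1 (0.15) and Ndn (-0.02) were under the signal minimum. Plagl1, a zinc finger transcription factor, had a signal of 3329 in the DMA pool, against 9580 in the control pool, and was 2.88-fold lower. Cdkn1c, an inhibitor of cyclin-dependent kinases, had 2420 in the DMA pool, against 5904 in the control pool, and was 2.44-fold lower. Mest was at -0.69 (98.7 in the DMA pool, 159 in the control pool), and the others (Peg3, Sgce and Meg3) ran from -0.58 to -0.51.

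**Figure D3:**
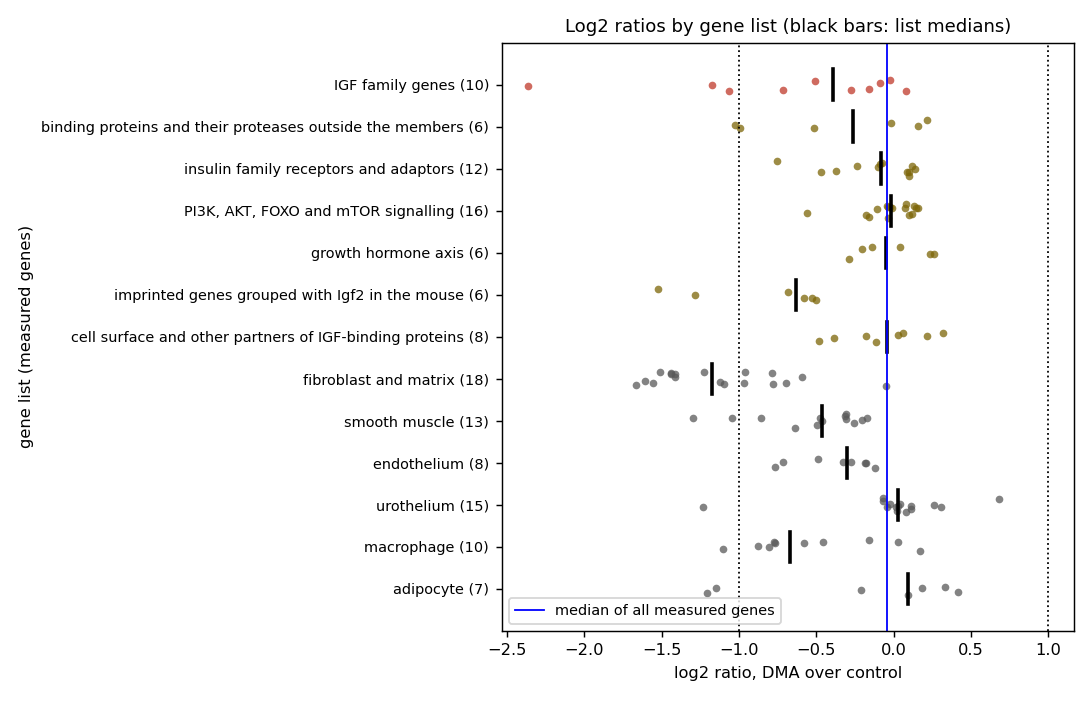
Log2 ratio of DMA over control of each measured gene (points) in the IGF family and in the gene lists with at least 5 measured genes, with list medians (black bars), the median of all measured genes (blue line, -0.04) and dotted lines at 2-fold. The lists of intracellular signalling and the urothelial markers (median 0.03) sit near 0. The adipocyte median (0.09) is near 0 as well, but was -0.21 when both signals had to reach 100. Adipocyte markers ran from Adipoq (-1.20) to Fabp4 (0.42). The family (-0.39) and the imprinted genes (-0.63) sit to the left. So do the fibroblast (-1.17), macrophage (-0.67), smooth muscle (-0.47) and endothelial (-0.30) markers.

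Markers of connective tissue moved in the same direction as Igfbp3, Igfbp4 and Igf1. Of 18 fibroblast and matrix markers, all 18 were measured, 11 were called lower and 0 higher, and the median log2 ratio was -1.17. Their summed signal was 226463 in the DMA pool, against 470652 in the control pool, and the defining markers Pdgfra (3007 in the DMA pool, 8147 in the control pool) and Col1a1 (33587 and 95837) were bright in both. A large part of each sum was Dcn (123104 in the DMA pool, 185257 in the control pool, log2 ratio -0.59). The sums thus say little about the dimmer markers. The lowest of the list was Ogn (-1.67). The highest was Fbln2 (-0.05), whose signals of 97.6 in the DMA pool and 101 in the control pool were at the minimum. The ratio of Igfbp3 was below that of every one of the 18 markers, and those of Igfbp4 and Igf1 were within their range. This place of Igfbp3 follows largely from the choice of the family by its low ratio. The part of the connective tissue in the ratios of the family was not tested.

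Other cell types gave smaller list medians. The 13 smooth muscle markers had 2 calls (Hspb6, 2.46-fold lower, and Kcnmb1), a median of -0.47 and summed signals of 577071 in the DMA pool and 750988 in the control pool, with Tagln the highest (-0.17). The 10 measured of 11 macrophage markers had 1 call (Fcgr2b, 2.15-fold lower), a median of -0.67 and sums of 6877 in the DMA pool and 9080 in the control pool, with C1qc the highest (0.17). Every such sum is weighted towards its brightest genes, here C1qa (3020 in the DMA pool, 2965 in the control pool). The 8 measured of 10 endothelial markers had 0 calls, a median of -0.30 and sums of 5170 and 6708 in the same order of pools, and ran from Kdr (-0.77) to Tie1 (-0.12). Of 7 measured adipocyte markers, Adipoq (-1.20) and Lpl (-1.15) were called lower, and the highest was Fabp4 (0.42). The adipocyte median was 0.09, but -0.21 when both signals had to reach 100. The sums were 44647 in the DMA pool and 42702 in the control pool. Most of each sum came from Fabp4 (24949 in the DMA pool, 18670 in the control pool) and Pparg (17943 and 20733), so it says little about the other adipocyte markers. The 15 measured urothelial markers had a median of 0.03 and sums of 2183590 in the DMA pool and 2060850 in the control pool, and ran from Krt20 (-1.23), the 1 call, to Krt18 (0.68). Urothelial markers were bright in both pools, so the labelled tissue was present, together with markers of the bladder wall.

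Igfbp1 to Igfbp6 lie in 4 chromosomal loci that each hold a tensin gene, while Igfbp7 lies elsewhere on chromosome 14, between Btf3l5 (-0.31) and Polr2b (-0.07). The gene order is that of GRCr8, and the loci were examined after the ratios of the members had been seen. On chromosome 9, Igfbp2 (0.08) and Igfbp5 (-0.72) are direct neighbours, and Tns1, with 1 coding gene between it and Igfbp5, was at -0.31. On chromosome 14, Igfbp3 (-2.36) lies beside Igfbp1, which was under the signal minimum, and Tns3, with 1 coding gene in between, was at -0.05 (385 in the DMA pool, 399 in the control pool). On chromosome 10, Igfbp4 (-1.17) lies directly between Top2a, the topoisomerase of dividing cells, which was called higher (1.95, with 335 in the DMA pool and 86.5 in the control pool), and Tns4 (0.93, with 1165 and 613). On chromosome 7, Igfbp6 (-0.51) is followed by Csad (0.03) with 1 coding gene in between and preceded by Spryd3 (-0.03) and Tns2 (-0.59). The measured genes directly beside Igfbp4 thus had ratios above 0. The nearest measured genes around Igfbp3, Tbrg4 (-0.08) and Tns3 (-0.05), had ratios near 0. Neither is directly beside Igfbp3, with 4 genes lying between Tbrg4 and Igfbp3. Those around Igf1 were Nt5dc3 (-0.25) and Nup37 (0.05). Over all 10 members there were 20 such neighbours, Igfbp2 and Igfbp5 among them. Their median log2 ratio was -0.08, against -0.04 for all measured genes. Of these 20, 15 were below 0, 1 was called higher and 0 were called lower.

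**Figure D4:**
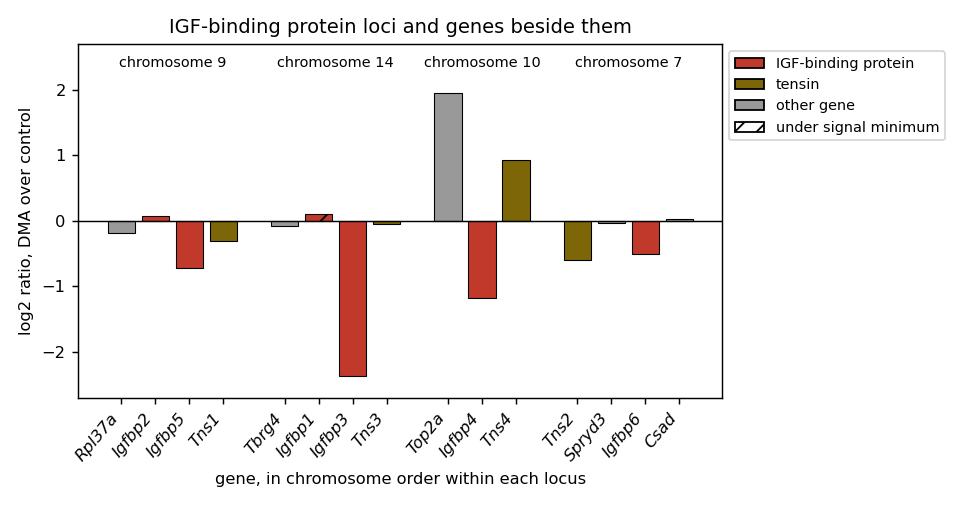
Log2 ratio of DMA over control for the IGF-binding protein genes (red), the tensin genes of the same loci (brown) and other nearby measured genes (grey). Genes are in chromosome order within each locus, not all of them directly adjacent, with 1 array per pool. Igfbp4 (-1.17) stands between Top2a (1.95) and Tns4 (0.93), and Igfbp3 (-2.36) stands between the dim Igfbp1 (hatched) and Tns3 (-0.05).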

How the data were processed

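RNA of 7 rats per group was pooled, labelled with a GeneChip WT PLUS kit and measured on 1 array per group. The array type named in the methods is not the type whose transcript clusters the file lists, and the file was followed here. The deposited values are signal intensities per transcript cluster that the authors summarised with RMA in Affymetrix Expression Console 1.4.1. On a log2 scale every value was rounded to 6 decimals (largest deviation 0.00072 millionths), so the file was read as antilogs and returned to log2. A further median normalization and the removal of signals under 100, named in the methods, were not applied in the file. The cluster annotation's build is not given in the sources used here. RMA makes the arrays broadly alike and narrows ratios of dim genes. A small offset remained, as the median signal over all clusters was 53.2 in the DMA pool and 49.7 in the control pool.

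Of 68842 clusters, 23446 had exactly 1 gene symbol, 22077 of these updated through the GRCr8 gene table. Ratios, Z scores, thresholds and promoter counts were computed with pandas 2.3.3, and the loess correction with statsmodels 0.14.6 (span 0.3). The code of the calls was checked on simulated log2 ratios, drawn from 1 normal distribution with added fold differences. The simulation held no differences between animals or arrays, so it does not show how reliable a call is, least of all near 2-fold. With 1 array per group no p-value or error could be given, and the number of arrays limits the precision of every value. The members and gene lists were chosen with earlier results of these data known. Named were all members, the genes next to Igfbp3 in ratio, called genes and the 3 largest absolute log2 ratios of each pathway list, and the lowest and highest of each marker list. Further genes named (Insr, Pappa, Igfbp1, Igfals, Peg3, Sgce, Meg3, Dlk1, Ndn, Igf2bp1, Pdgfra, Col1a1, Dcn, C1qa, Pparg, Lpl, Kcnmb1 and those of the loci and around Igf1) were added for their role, signal, call or place. Other called fibroblast markers were counted but not named.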

Additional observations from a re-analysis of the deposited data

How the results depend on the processing

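The alternatives were listed with earlier results of these data known, and 165 of 170 recomputed values moved by less than 1.5-fold. Igfbp3, Igfbp4 and Igf1 were called lower under all 9 settings tried, and Igfbp5 joined them at 1.5-fold. The log2 ratios ran from -2.46 to -2.32 for Igfbp3, -1.27 to -1.14 for Igfbp4 and -1.16 to -1.03 for Igf1. Only median centring and the loess correction altered the ratio of any member, as each had 1 cluster. The other settings changed the thresholds, the Z score or the genes measured. Those without a Z score could only add calls, so most settings were a weak check on these 3 genes. The family median ran from -0.51 (both signals at least 100, which removed Igf2) to -0.32 (loess correction). The share of all measured genes called lower was 0.756% with no signal minimum and 5.48% at 1.5-fold alone, and the share called higher was 0.169% when both signals had to reach 100 and 1.3% at 1.5-fold alone. The median of the genes that bind Igf2 mRNA was 0.44 when both signals had to reach 100, which left 1 gene. The medians of the PI3K, adaptor, partner, other ligand, urothelial and adipocyte lists, all near 0, changed sign between settings. No paired analysis was possible because each group has 1 array. No replicate could be left out for the same reason.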
